A study of Caenorhabditis elegans with 8 samples.

Results

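The Srg superfamily is one of the large groups of chemoreceptor genes of *Caenorhabditis elegans*, and its families *srg*, *srt*, *sru*, *srv* and *srx* are covered here. A gene was taken as a member when a probe set, the group of array probes that reports 1 transcript, carried its symbol alone in the annotation of the array. This gave 294 genes with 1 probe set each, of 25478 genes measured in this way and of 29317 probe sets in all. There were 59 *srg*, 62 *srt*, 40 *sru*, 30 *srv* and 103 *srx* genes, of which 283 are listed as protein coding and 11 as pseudogenes in the gene table.

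Total RNA of whole *dyf-1(mn335)* hermaphrodites and of wild-type N2 hermaphrodites, all age-synchronised by bleaching and collected on day 1 of adulthood, was hybridised to Affymetrix gene arrays, with 4 arrays per strain. The *dyf-1* gene is needed for OSM-3, a kinesin of intraflagellar transport, to extend the outer part of sensory cilia, and this part is missing in *dyf-1(mn335)* worms. The values are log2 expression values after RMA, a method that corrects the background, equalises the distributions of the arrays and summarises the probes. Each sample was a pool of many worms, and the study describes the 4 samples of a strain as biologically independent.

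Proteins of this superfamily have the heptahelical topology of G protein-coupled receptors. Chemoreceptors are made mainly in ciliated sensory neurons, each gene often in 1 or a few cell types, are carried to the cilium and there bind odours, tastants or pheromones and act through heterotrimeric G proteins on cyclic GMP-gated or TRP channels. The best known members bind ascarosides, the small molecules that *C. elegans* worms use to signal crowding and to attract or repel each other. Whole worms contain few cells that make any 1 of these receptors. In such RNA, fewer cells of a type and less RNA per cell cannot be told apart.

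Among the 294 genes, *srx-45* was the receptor with a clear difference: its transcript was 2.45-fold higher in *dyf-1(mn335)*. *srt-42* was 1.57-fold higher and passed the same threshold, but not in most alternative analyses. No member was called lower, although 226 of the 294 fold changes were below 0, most of them small. A gene was called when the two-sided limma test, with Benjamini-Hochberg adjustment across the 29317 probe sets, gave an adjusted p under 0.01. By this rule 10% of all probe sets were called (6.56% higher, 3.46% lower), compared with 2 members higher (0.680%) and 0 lower. Taking an unadjusted p under 0.05 instead, 4 members were higher (1.36%, against 19% of all probe sets) and 52 were lower (17.7%, against 20%). The higher ones were *srx-45*, *srt-42*, *srx-56* and *srx-136*.

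Most of these transcripts were near the lower end of the array's scale. Only 5 members (1.70%) had a mean log2 value of 5 or more over the 8 arrays, compared with 52.9% of all probe sets. These 5 are called bright below, and the other 289 dim. For 283 members no single array gave a value of 5 or more, 277 had a mean under 4 and 214 a mean under 3. The median over all members was 2.61, and that over all probe sets 5.22. The family medians were 2.71 for *srg*, 2.76 for *srt*, 2.46 for *sru*, 2.53 for *srv* and 2.65 for *srx*. *srv* had 3 bright genes (*srv-1*, *srv-7* and *srv-15*), *srt* had 1 (*srt-47*), *srx* had 1 (*srx-45*), and *srg* and *sru* had 0. Probes differ in how brightly they bind, so that these figures describe where the probe sets lie on the array's scale, not which transcripts are more abundant, and a low value does not show that a gene is silent. Just outside the value of 5 lay *srx-118* at 4.88 and *srt-42* at 4.76, and just inside lay *srt-47* at 5.22 and *srv-15* at 5.26.

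**Figure D1:**
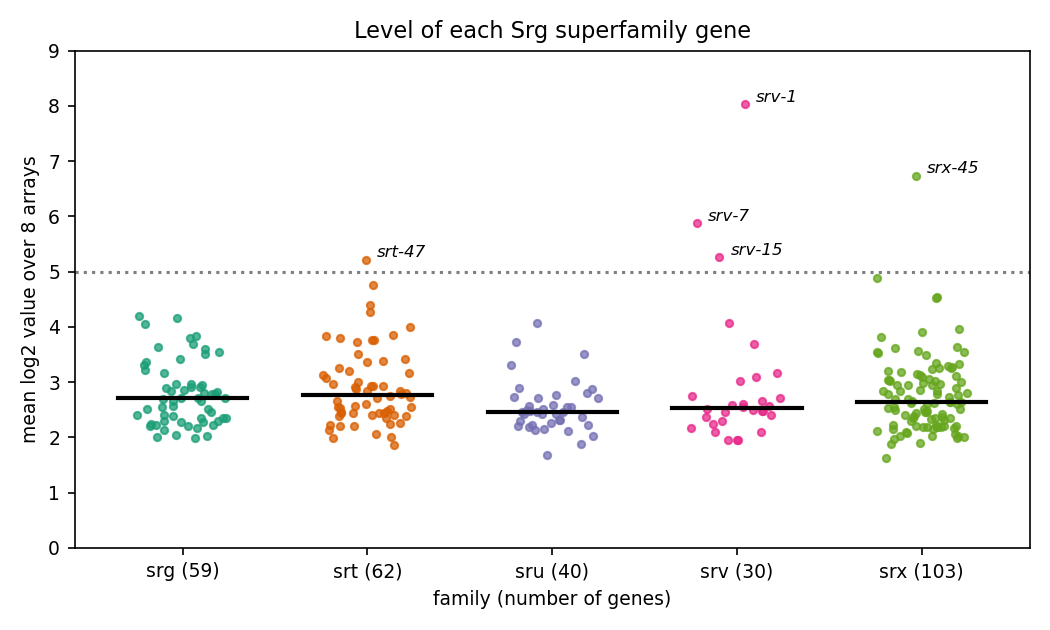
Mean log2 expression value over all 8 arrays (vertical axis) of each of the 294 genes, by family (horizontal axis, number of genes in brackets). Each dot is a gene, bars are family medians and the dotted line is the value of 5; the 5 named genes lie above it, and 289 lie below.

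The plot of levels by family shows that each family formed 1 dense group between about the same limits, with single genes above it. The values of the members ran between 1.62 and 8.03.

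*srx-45* encodes a receptor of the *srx* family for which the gene table gives no further role. Its log2 values were 7.42, 7.33, 7.52 and 7.25 in *dyf-1(mn335)* arrays, and 6.02, 6.15, 5.97 and 6.21 in wild-type arrays. All mutant arrays lay above all wild-type arrays, and the gap between the strains was wider than the range within either. The means were 7.38 ± 0.12 in *dyf-1(mn335)* and 6.09 ± 0.11 in wild-type (SD, n = 4 each). The log2 fold change was 1.29 (standard error 0.13, 95% confidence interval 1.00 to 1.58, adjusted p = 0.00036 from limma). The exact two-sided permutation test gave p = 0.0286, the smallest that 4 arrays against 4 allow. The log2 fold change stayed between 1.14 and 1.38 in all 17 alternative analyses, and the call was lost in 1 of them, with the replicate number as a block (adjusted p = 0.012). No other gene of the superfamily lay next to it in the gene table. Of its direct neighbours, *K01B6.3* had a log2 difference of -0.08 and an adjusted p of 0.74 in limma and *C40H1.8* one of 0.58 and an adjusted p of 0.053.

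The other 4 bright genes did not pass the test. *srv-1* gave 7.90, 8.06, 8.16 and 8.18 in *dyf-1(mn335)* arrays and 8.03, 7.86, 7.99 and 8.04 in wild-type arrays. The strains overlapped in this gene, and the log2 fold change was 0.10 (95% confidence interval -0.19 to 0.38, adjusted p = 0.60 from limma), an interval that lies within a 2-fold change in both directions. *srv-7* gave 5.61, 5.11, 5.67 and 5.91 in *dyf-1(mn335)* arrays and 6.46, 6.003, 6.63 and 5.63 in wild-type arrays. Here 3 wild-type arrays lay above all mutant arrays and wild-type replicate 4 lay among them. The log2 fold change was -0.61 (standard error 0.25, adjusted p = 0.11). With array weights, which give arrays that stand apart less influence, it was -0.85 (adjusted p = 0.0060) and passed the test. Under these weights 18.4% of all probe sets were called lower.

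*srv-15* gave 4.77, 5.53, 5.22 and 4.58 in *dyf-1(mn335)* arrays and 5.63, 5.60, 5.34 and 5.38 in wild-type arrays. The mutant arrays spread over a wider range than the wild-type arrays and overlapped with them, and the log2 difference was -0.46 ± 0.21 (standard error), with an adjusted p of 0.14 from limma. *srt-47* gave 5.41, 5.19, 5.32 and 5.29 in *dyf-1(mn335)* arrays and 5.06, 5.07, 5.06 and 5.36 in wild-type arrays. Wild-type replicate 4 again lay among the mutant arrays, and the log2 fold change was 0.16 (standard error 0.13, adjusted p = 0.38). For the 5 bright genes as a group the median was 0.10 on the log2 scale, compared with 0.01 for all probe sets of 5 or more.

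**Figure D2:**
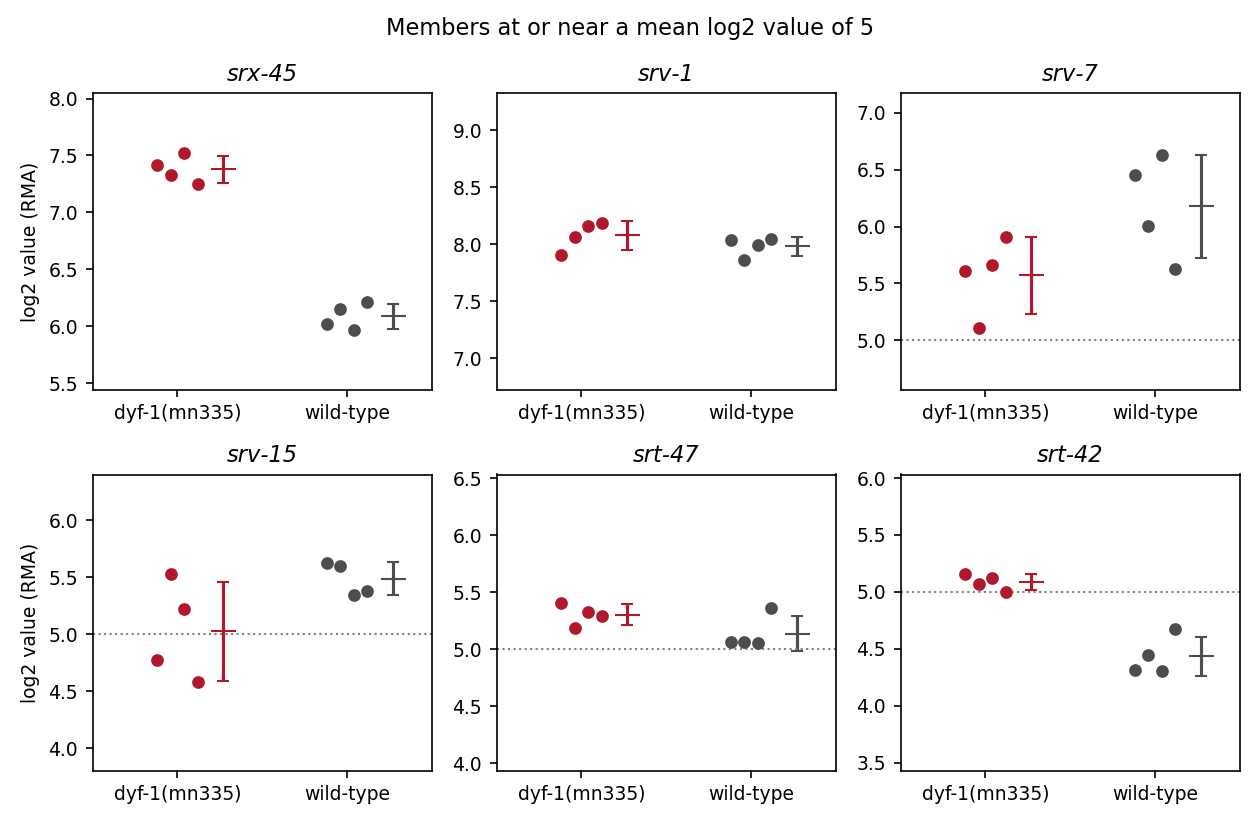
Log2 expression value (vertical axis, its own range in each panel) per array of the 5 bright members and of *srt-42*, in *dyf-1(mn335)* (left, red) and wild-type (right, grey). Dots are arrays, crosses with bars are means ± SD (n = 4 each) and dotted lines mark a value of 5; the strains are apart in *srx-45* and *srt-42* and overlap in the other 4 genes.

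The array plot of the bright genes shows the gap of *srx-45* and a narrower one in *srt-42*. *srt-42*, a dim member, gave 5.16, 5.07, 5.12 and 4.997 in *dyf-1(mn335)* arrays and 4.31, 4.45, 4.30 and 4.68 in wild-type arrays. It was the 1 member with a mean of 5 or more in the mutant only. The means were 5.09 ± 0.07 in *dyf-1(mn335)* and 4.43 ± 0.17 in wild-type (SD, n = 4 each). Its log2 fold change was 0.65 (standard error 0.13, 95% confidence interval 0.35 to 0.95, adjusted p = 0.0082 from limma, exact permutation p = 0.0286). The strains did not overlap, but the call was lost in 11 of 16 alternative analyses, among them those that left out any 1 of the mutant arrays or any 1 of the wild-type arrays 1 to 3, with adjusted p between 0.0014 and 0.030 over all arrays left out. It passed without wild-type replicate 4. Its direct neighbours in the gene table were *hsp-16.41* (log2 fold change -0.01, adjusted p = 0.98) and *Y46H3A.4* (-0.06, adjusted p = 0.81).

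*srx-118* was the 1 member with a mean of 5 or more in wild-type only. It gave 4.39, 4.70, 4.49 and 4.99 in *dyf-1(mn335)* arrays and 5.05, 5.46, 4.98 and 4.97 in wild-type arrays. The highest mutant array lay just above the lowest wild-type arrays, and the log2 fold change was -0.47 (standard error 0.18, adjusted p = 0.082 from limma). With array weights, under which 18.4% of all probe sets were called lower, it was -0.59 (adjusted p = 0.0079).

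The largest differences below 0 were in dim genes, and none passed the threshold. *srg-20*, *srv-32*, *srx-55*, *srt-49* and *srt-41* were picked for description after their values had been seen. *srg-20* gave 2.53, 3.23, 3.42 and 3.12 in *dyf-1(mn335)* arrays and 4.66, 3.77, 4.03 and 4.11 in wild-type arrays. All mutant arrays lay below all wild-type arrays, and the log2 difference was -1.07 ± 0.24 (standard error), with an adjusted p of 0.013 from limma. *srg-20* was called lower in 3 of 16 alternative analyses, 1 of them the cut-off of 0.05. The others were array weights (-1.16, adjusted p = 0.0040) and centring (-1.23, adjusted p = 0.0068). Under these 18.4% and 5.64% of all probe sets were called lower. *srt-49* gave 3.60, 3.20, 3.41 and 3.83 in *dyf-1(mn335)* arrays and 4.28, 4.13, 4.21 and 4.22 in wild-type arrays. The wild-type arrays lay close together and above all mutant arrays, and the log2 difference was -0.70 ± 0.16 (standard error), with an adjusted p of 0.012 from limma. It was called lower in 7 of 16 alternative analyses, of which the cut-off of 0.05 only loosened the threshold on the same fit. The others included centring of the arrays (-0.86, adjusted p = 0.0048) and cyclic loess (-0.74, adjusted p = 0.0085). They also included leaving out mutant replicate 4 (-0.81, adjusted p = 0.0066) or wild-type replicate 4 (-0.70, adjusted p = 0.0098).

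*srv-32* had a log2 fold change of similar size, -1.06, but a standard error of 0.42. Its values were 3.71, 2.92, 2.80 and 3.24 in *dyf-1(mn335)* arrays and 4.17, 4.49, 5.22 and 3.02 in wild-type arrays, so that wild-type replicate 4 lay among the mutant arrays (adjusted p = 0.092 from limma). The pseudogene *srx-55* gave 2.89, 2.47, 2.74 and 3.01 in *dyf-1(mn335)* arrays and 4.29, 3.45, 2.93 and 4.11 in wild-type arrays, and the log2 difference was -0.92 ± 0.29 (standard error), with an adjusted p of 0.045 from limma. In the other direction, *srt-41* gave 5.05, 4.59, 4.73 and 3.88 in *dyf-1(mn335)* arrays and 3.46, 4.01, 3.88 and 4.49 in wild-type arrays. Both replicate 4 arrays stood apart from their strain in this gene. With all arrays its log2 fold change was 0.60 (adjusted p = 0.15). Without both replicate 4 arrays, when 17% of all probe sets were called higher, it was 1.01 (adjusted p = 0.0034).

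**Figure D3:**
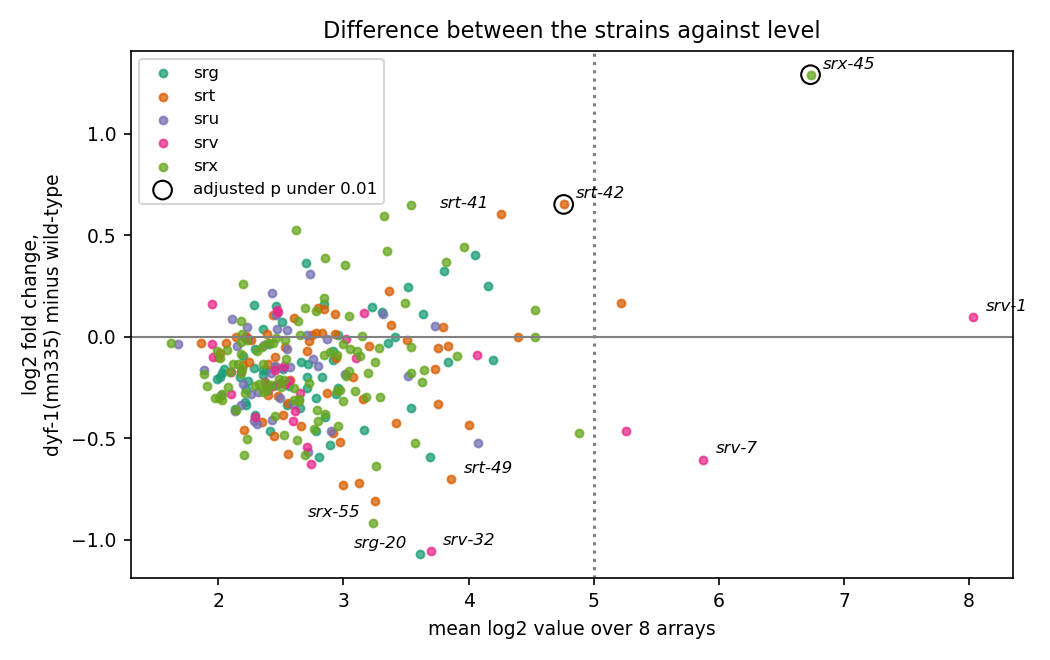
Log2 fold change, *dyf-1(mn335)* minus wild-type (vertical axis), against the mean log2 value over 8 arrays (horizontal axis) of each of the 294 genes, coloured by family. Rings mark the 2 called genes, *srx-45* and *srt-42*, and the dotted line marks a value of 5; most of the dim genes lie slightly below 0.

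The plot of difference against level shows few members far from 0. A change larger than 2-fold in either direction was estimated for 3 members (*srx-45*, *srg-20* and *srv-32*), and an absolute log2 fold change above 0.5 for 29. For 177 members the difference between the strains was smaller than the larger of the SDs of the strains. The 95% confidence interval of the fold change lay within 2-fold in both directions for 269 of the 294 members, 3 of the 5 bright and 266 of the 289 dim. Values of dim members reflect background binding as well as transcript, so that such an interval does not bound the change of their transcripts. The median standard error was 0.16, and a member had to differ by a median of 0.77 on the log2 scale to be called, between 0.54 and 1.96 depending on its spread. These values are cut-offs on the estimated difference, from each gene's own standard error. They do not set how small a true difference can be detected with 4 arrays per strain, and a larger one can be missed.

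As a group, the dim members tended to lower values in the mutant. The median log2 fold change of the dim members was -0.16, compared with -0.07 for all probe sets with a mean under 5. Of the dim members 77.5% lay below 0, compared with 57.8% of those probe sets. Over all members the median was also -0.16, compared with -0.04 for all probe sets, and 76.9% lay below 0, compared with 53.4%. By family the median was -0.17 for *srg*, -0.10 for *srt*, -0.15 for *sru*, -0.20 for *srv* and -0.17 for *srx*. At an adjusted p under 0.05, 13 members were lower (4.42%, against 11.7% of all probe sets and 7.25% of the dim ones). They were *srg-20*, *srt-23*, *srt-45*, *srt-49*, *srt-53*, *srt-64*, *srt-65*, *sru-44*, *srv-25*, *srx-55*, *srx-74*, *srx-98* and *srx-104*. All mutant arrays lay below all wild-type arrays in 41 members (13.9%, against 11.1% of all probe sets and 9.23% of the dim ones). Of these 41, 18 were *srx*, 10 *srg*, 9 *srt*, 2 *sru* and 2 *srv* genes. All mutant arrays lay above all wild-type arrays in 4 members (1.36%, against 12.6% of all probe sets and 9.42% of the dim ones), namely *srx-45*, *srt-42*, *srx-136* and *srx-135*.

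The shift depended on the level. Over members with a mean under 2.5 (121 genes) the median log2 fold change was -0.17, compared with -0.13 for the other probe sets of that level. Between 2.5 and 3 (93 genes) it was -0.21 against -0.11, and between 3 and 4 (63 genes) -0.09 against -0.04. The 12 members between 4 and 5 had a median of 0.00 against 0.09, a group of few genes. In the same order of level, 14.9%, 16.1% and 12.7% of the members under 2.5, between 2.5 and 3 and between 3 and 4 had all mutant arrays below all wild-type arrays, compared with 6.90%, 7.16% and 9.71% of the other probe sets. The members' median thus lay below that of other probe sets of like level in each of these classes.

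The size of this shift and the number of genes that showed it also depended on the scaling of the arrays. The median of all probe sets was 5.30, 5.33, 5.30 and 5.36 in *dyf-1(mn335)* arrays and 5.16, 5.16, 5.14 and 5.21 in wild-type arrays, whereas the median of the members was 2.52, 2.52, 2.49 and 2.57 in *dyf-1(mn335)* arrays and 2.69, 2.65, 2.81 and 2.70 in wild-type arrays. After centring each array on its median, which moved the median of all probe sets to -0.19, the median log2 fold change of the members was -0.31, and 34.4% of the members (against 21.1% of all probe sets) had all mutant arrays below all wild-type arrays. After cyclic loess, which evens out differences that depend on the level, the median was -0.05 and in 18 members (6.12%, against 11.3% of all probe sets) all mutant arrays lay below all wild-type arrays. The direction of the median was the same in all 3 scalings, and the share of members without overlap went from above to below that of all probe sets.

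**Figure D4:**
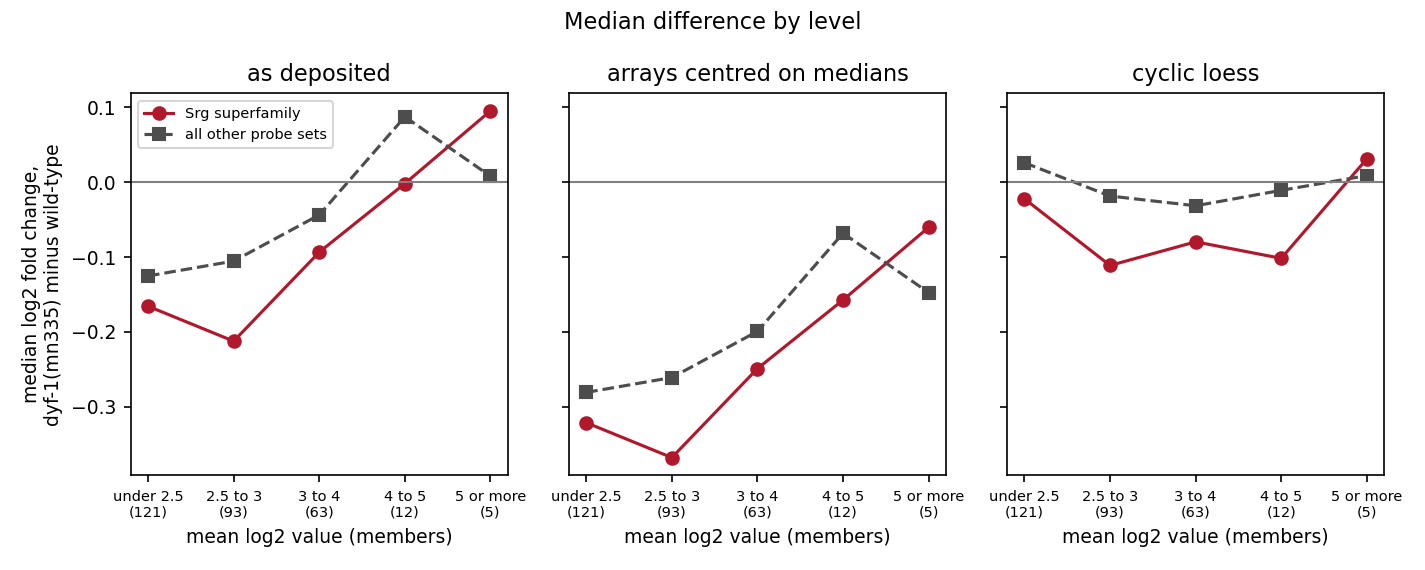
Median log2 fold change, *dyf-1(mn335)* minus wild-type (vertical axis), by mean log2 value (horizontal axis, number of members in brackets), for the members (red circles) and all other probe sets (grey squares), as deposited, after centring each array on its median and after cyclic loess. The members lie below the other probe sets in each of the 4 classes under 5 and above them in the class of 5 or more, which holds 5 members.

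The plot of medians by level shows that the members stayed below the other probe sets in every class under 5 in all 3 panels, while both lines moved with the scaling. After cyclic loess the members' medians were -0.02 under 2.5, -0.11 between 2.5 and 3 and -0.08 between 3 and 4, compared with 0.03, -0.02 and -0.03 for the other probe sets.

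Several members have known roles and were described whatever their values. *srg-36* and *srg-37* encode ascaroside receptors of the ASI neurons that act in dauer formation, and both were dim. *srg-36* gave 2.97, 2.47, 2.63 and 3.12 in *dyf-1(mn335)* arrays and 2.77, 3.36, 3.004 and 3.21 in wild-type arrays (log2 fold change -0.29, adjusted p = 0.30 from limma). *srg-37* gave 3.10, 2.70, 2.72 and 3.20 in *dyf-1(mn335)* arrays and 2.81, 2.68, 3.31 and 2.28 in wild-type arrays (0.16, adjusted p = 0.63). The strains overlapped in both genes.

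*srx-43* and *srx-44* are a neighbouring pair that encodes further ascaroside receptors. *srx-43* gave 4.03, 3.58, 4.84 and 3.01 in *dyf-1(mn335)* arrays and 3.15, 3.05, 3.28 and 3.40 in wild-type arrays. The mutant arrays spread widely, and mutant replicate 4 lay below all wild-type arrays, so that the log2 fold change of 0.65 had a standard error of 0.33 (adjusted p = 0.18 from limma). *srx-44* gave 2.48, 2.52, 2.68 and 2.27 in *dyf-1(mn335)* arrays and 2.69, 2.68, 3.16 and 2.68 in wild-type arrays (-0.32, adjusted p = 0.17).

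*srg-2* and *srg-8* are known from reporter genes in the ASK neurons, and *srg-13* from a reporter in the PHA neurons of the tail. *srg-2* lay between 3.63 and 3.75 in *dyf-1(mn335)* arrays and between 3.38 and 3.72 in wild-type arrays (log2 fold change 0.11, adjusted p = 0.53 from limma). *srg-8* gave 3.89, 3.69, 4.19 and 5.24 in *dyf-1(mn335)* arrays and 3.81, 3.96, 3.92 and 3.71 in wild-type arrays, with mutant replicate 4 far above the other arrays (0.40, adjusted p = 0.35). *srg-13* gave 2.76, 2.26, 2.52 and 2.49 in *dyf-1(mn335)* arrays and 3.52, 2.92, 3.45 and 2.51 in wild-type arrays. Its log2 fold change was -0.59 (adjusted p = 0.092), and without wild-type replicate 4, which lay among the mutant arrays, -0.79 (adjusted p = 0.0096). Without that array 12.9% of all probe sets were called lower.

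The remaining named genes overlapped between the strains. *srx-97* gave 2.99, 2.91, 3.31 and 3.13 in *dyf-1(mn335)* arrays and 3.66, 2.99, 3.07 and 2.99 in wild-type arrays (log2 fold change -0.09, adjusted p = 0.73 from limma). Among the 2 brightest probe sets of their families, *srg-34* differed by -0.11 on the log2 scale (adjusted p = 0.78), *srg-9* by 0.25 (adjusted p = 0.35), *sru-25* by -0.53 (adjusted p = 0.11) and *sru-16* by 0.05 (adjusted p = 0.84).

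**Figure D5:**
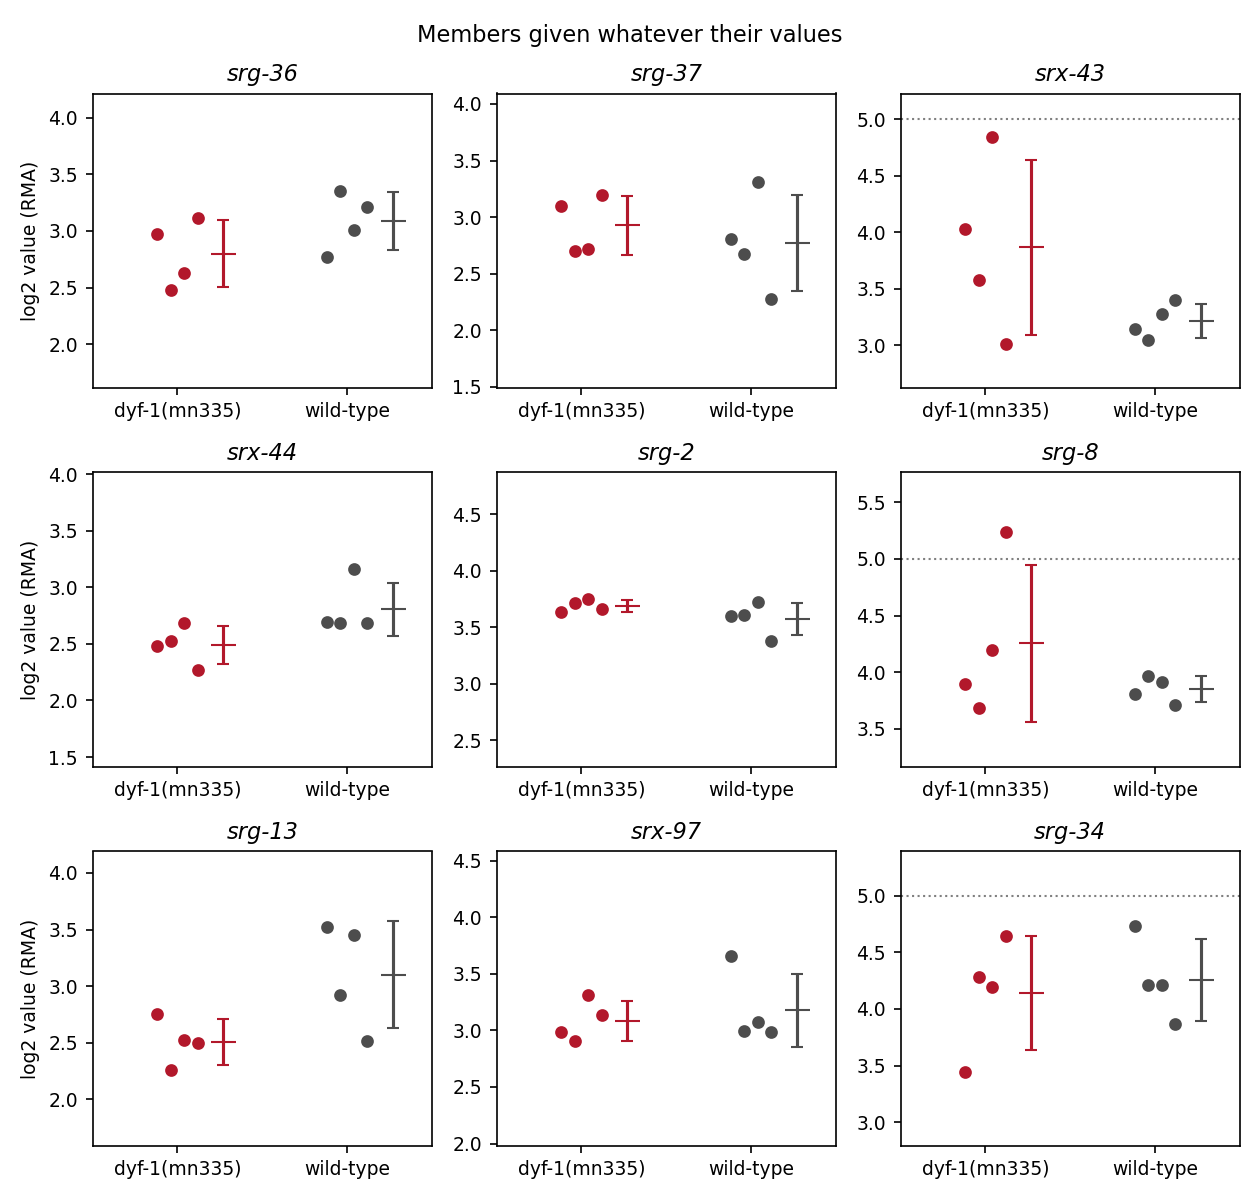
Log2 expression value (vertical axis, its own range in each panel) per array of 9 members described whatever their values, in *dyf-1(mn335)* (left, red) and wild-type (right, grey). Dots are arrays, crosses with bars are means ± SD (n = 4 each) and dotted lines mark a value of 5; the strains overlap in all 9 genes.

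The array plot of these 9 genes shows a wide spread of the mutant arrays in *srx-43* and 1 high mutant array in *srg-8*. In both, the mutant SD (0.77 and 0.69) was larger than the wild-type SD (0.15 and 0.11).

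Chemoreceptor genes often lie in clusters of near copies, and 163 of the 294 members stood next to another member in the order of the gene table, in 57 runs. All but 2 of the 106 adjacent pairs were of the same family. The longest run held 7 *srt* genes, *srt-12* to *srt-38*, with log2 fold changes between -0.49 and 0.10. The run of *srg-8*, *srg-9*, *srg-1* and *srg-2* had fold changes between 0.11 and 0.40, none of them called. The run of *srx-134*, *srx-136*, *srx-135* and *srx-137* held the other 2 members whose mutant arrays all lay above the wild-type arrays. *srx-136* gave 3.86, 4.33, 3.95 and 3.88 in *dyf-1(mn335)* arrays and 3.68, 3.45, 3.68 and 3.74 in wild-type arrays (0.37, adjusted p = 0.099 from limma), and *srx-135* differed by 0.26 (adjusted p = 0.19). All 5 bright members stood alone, as did 131 members in all. Probes of near copies may bind each other's transcripts, and whether they did was not tested. A further 4 probe sets named a gene of these families more than once or with another gene (*srt-1* with *srt-2* on 2 probe sets with identical values, *srx-125* under 2 entries of the same symbol, and *srt-61* with *F49D11.11*) and were not counted as members, and none of them was called.

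The other chemoreceptor superfamilies were mostly dim as well, and their differences from the Srg superfamily were not tested. The Str superfamily had 7 of 567 genes at 5 or more, 5 called higher and 9 lower, and a median log2 fold change of -0.15. The Sra superfamily had 6 of 123 at 5 or more, 1 called higher and 0 lower, and a median of -0.18. The chemoreceptor families not counted in these groups, *srxa* among them, were grouped by symbol. They had 11 of 315 at 5 or more, 2 called higher and 3 lower, and a median of -0.15. In these 3 groups 11.1%, 9.76% and 10.5% of the genes had all mutant arrays below all wild-type arrays, against 11.1% of all probe sets and 9.23% of the dim ones. Fold changes below 0 made up 77.6%, 78.9% and 79.7% of the groups, and 76.9% of the Srg superfamily. Of the genes of the groups 0.882%, 0.813% and 0.635% were called higher. Of all probe sets 6.56% were called higher and 3.46% lower, and of the dim ones 4.17% and 2.07%.

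Genes for proteins that carry chemoreceptors to the cilium, pass on their signal or set their expression held rises and no falls. Of 18 genes for receptor trafficking, 10 rose in *dyf-1(mn335)* (55.6%, against 6.56% of all probe sets) and 0 fell, with a median log2 fold change of 1.24. They included the BBSome subunits *osm-12* (1.84, adjusted p = 0.00022 from limma) and *bbs-9* (1.73, adjusted p = 0.00015), whereas *odr-4* and *odr-8*, which are needed to move receptors out of the cell body, had fold changes of -0.09 and -0.05. Of the 25 listed genes of chemosensory G protein transduction with a probe set of their own, 10 of them at 5 or more, 7 rose (28.0%) and 0 fell, with a median of 0.61. Among them were the G protein alpha subunit gene *odr-3* (2.07, adjusted p = 0.00067) and the cyclic nucleotide-gated channel subunit gene *tax-2* (1.18, adjusted p = 0.00097), while its partner *tax-4* differed by 0.30 (adjusted p = 0.12). Of 23 regulators of chemoreceptor expression, 4 rose (17.4%) and 0 fell, with a median of 1.17, among them the transcription factor genes *lim-4* (1.84, adjusted p = 0.0071) and *unc-42* (2.49, adjusted p = 0.0081).

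Markers of several tissues moved along with these differences. By the same rule 6.56% of all probe sets rose and 3.46% fell. Of 14 cilium markers 13 rose, and their mean was between 6.31 and 6.45 in *dyf-1(mn335)* arrays and between 4.64 and 4.96 in wild-type arrays. Of 10 pan-neuronal markers 6 rose (between 9.44 and 9.53 in *dyf-1(mn335)* arrays and between 8.43 and 8.87 in wild-type arrays). Of 7 glia markers 3 rose and 0 fell, of 8 muscle markers 1 rose and 0 fell, of 12 markers of the hypodermis and moulting 4 rose and 1 fell (means between 7.89 and 8.63 in *dyf-1(mn335)* arrays and between 6.88 and 8.02 in wild-type arrays), of 10 intestine markers 1 rose and 2 fell, of 11 sperm markers, 4 of them at 5 or more, 0 rose and 2 fell (means between 4.04 and 4.19 in *dyf-1(mn335)* arrays and between 4.51 and 4.82 in wild-type arrays), and of 14 markers of oocytes and the germline 0 were called. The median log2 fold change was 1.51 for cilium, 0.76 for pan-neuronal, 1.01 for glia and 0.82 for muscle markers. It was 0.87 for hypodermis and moulting, -0.19 for intestine, -0.42 for sperm and 0.02 for oocyte and germline markers. Wild-type replicate 4 had the highest mean of the wild-type arrays in each of these marker lists except that of the intestine. The part of these tissues in the values of *srx-45*, *srt-42* and the dim members was not tested.

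The *dyf-1* transcript itself gave 6.85, 7.02, 7.30 and 7.48 in *dyf-1(mn335)* arrays and 6.26, 6.01, 5.61 and 6.07 in wild-type arrays (log2 fold change 1.18, adjusted p = 0.0031 from limma). As the sources do not describe the lesion of *mn335*, this level is no check of the labels. Over all probe sets, wild-type replicate 4 correlated with the other wild-type arrays at 0.958 to 0.974 and with mutant arrays 1 to 3 at 0.976 to 0.978, whereas wild-type arrays 1 to 3 correlated with each other at 0.987 to 0.992. Mutant replicate 4 correlated with mutant arrays 1 to 3 at 0.978 to 0.984, and those with each other at 0.993 to 0.994. Without wild-type replicate 4, *srx-45* and *srt-42* were called higher and 6 members lower (*srg-13*, *srt-49*, *srt-53*, *srv-6*, *srv-32* and *srx-104*), when 13.3% of all probe sets were called higher and 12.9% lower. Without both replicate 4 arrays, 3 members were called higher (*srx-45*, *srt-42* and *srt-41*) and 8 lower, when 17% of all probe sets were called higher and 16.3% lower. Without mutant replicate 4, *srx-45* was called higher and *srt-49* lower, when 5.99% of all probe sets were called higher and 2.46% lower.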

How the data were processed

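Whole-worm RNA of *dyf-1(mn335)* and wild-type adults was measured on Affymetrix gene arrays, 4 per strain. The authors used the RMA method of oligo, an R package (background adjustment, quantile normalisation, median polish). They deposited 1 log2 value per probe set and array for 29317 probe sets. The medians of the deposited arrays still differed, at 5.30 to 5.36 in *dyf-1(mn335)* arrays and 5.14 to 5.21 in wild-type arrays. No value was missing, and no coordinates are printed, since the array files and labels name no genome build. Strains were taken from the sample labels.

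For the comparison of *dyf-1(mn335)* and wild-type, limma 3.58.1 (lmFit and eBayes, R 4.3.3) was fitted two-sided and without covariates to all probe sets, which were called at a Benjamini-Hochberg adjusted p under 0.01. Single genes were also compared with the exact two-sided permutation test. The fit was tested on simulated data. Confidence intervals are 95% intervals from limma, not adjusted for the number of genes. The precision is limited by the number of arrays.

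Gene names came from the annotation of the platform, and all 294 members matched the RefSeq gene table (WBcel235) by Entrez ID, from which biotypes and neighbours were taken. The members and all lists were chosen with earlier results of these data known. Named by rule were called members, the 3 uncalled bright members (mean of 5 or more) with the smallest adjusted p, the 2 brightest members of each family, 9 members whatever their values, and up to 2 called genes of each other list with the smallest adjusted p. *tax-4*, *odr-4*, *odr-8* and the further members named were picked after their values were seen.

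The alternatives were an adjusted p under 0.05, leaving out probe sets with a mean under 5, an intensity trend with robust spread, array weights, centring on array medians, cyclic loess, a block for the replicate number, the mean over the probe sets of a gene, and leaving out each array or both replicate 4 arrays. Plots were made in Python 3.11.15 (matplotlib 3.10.9).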

Additional observations from a re-analysis of the deposited data

Results flagged for a closer look

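In 4 of the 44 groups of 4 arrays checked among the named members, 1 array lay farther from the others than Dixon's criterion allows at 95%, where chance gives about 1 group in 20. All 4 were wild-type arrays, each a different one. For *srt-47*, wild-type replicate 4 was at 5.36 and the other wild-type arrays between 5.06 and 5.07. For *srx-118*, wild-type replicate 2 was at 5.46 and the others between 4.97 and 5.05. For *srx-44*, wild-type replicate 3 was at 3.16 and the others between 2.68 and 2.69. For *srx-97*, wild-type replicate 1 was at 3.66 and the others between 2.99 and 3.07. None of these genes was called with all arrays or without any 1 of them.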

How the results depend on the processing

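*srx-45* kept its direction in all alternatives and its call in all but the replicate block. The number of bright members called higher was 1 in all analyses except the block, where it was 0, and 1 whichever array was left out. The number called lower was 0 except with array weights (1, *srv-7*), and 0 whichever array was left out. The number of dim members called higher was 1 (*srt-42*) in the main analysis, when 6.56% of all probe sets were called higher. It was 0 with trend and robust spread (6.07% of all probe sets), after centring (5.17%), after cyclic loess (5.81%) and with the block (0.805%). It was 2 with array weights (18.7%), 2 without both replicate 4 arrays (17%), and 0 to 1 with single arrays left out (3.18% to 13.3%). Dim members called lower (0) were 13 at an adjusted p under 0.05 (11.7% of all probe sets), 19 with array weights (18.4%) and 4 after centring (5.64%). They were 1 after cyclic loess (3.96%), 8 without both replicate 4 arrays (16.3%) and 0 to 6 with single arrays left out (1.11% to 12.9%). The median log2 fold change of dim members (-0.16) was -0.31 after centring and -0.051 after cyclic loess, and -0.18 to -0.13 with single arrays left out; that of bright members was 0.05 to 0.13.

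The shares of members without overlap between the strains were recomputed in alternatives chosen after seeing the data. Members with all mutant arrays higher (1.36%) were 0.680% after centring (all probe sets 9.02%), 2.04% after cyclic loess (12.5%), 2.72% without both replicate 4 arrays (28.7%), and 1.36% to 2.72% with single arrays left out (13.3% to 22.96%). Members with all mutant arrays lower (13.9%) were 34.4% after centring (all probe sets 21.1%, dim ones 20.6%), 6.12% after cyclic loess (11.3% and 8.49%), 27.9% without both replicate 4 arrays (30.4% and 21.3%), and 16.3% to 20.4% with single arrays left out (all probe sets 12.3% to 22.8%).

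Same-numbered arrays of the strains did not deviate together (correlations of -0.31, 0.01, -0.20 and -0.57 over all probe sets). As both replicate 4 arrays stood apart from their strains, this cannot show whether same-numbered samples were prepared together. With the replicate block 236 probe sets were called higher and 79 lower, and 0 members in either direction, against 1924 and 1015 without it. Low values limit these results: 289 members were dim, where the array values reflect background binding as well as transcript.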
